A study of Mus musculus with 20 samples.

Results

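The 47 genes described here encode plasma proteins that hepatocytes secrete: acute phase proteins, complement components, coagulation factors and abundant carriers, together with the membrane metalloreductase Steap4. They were chosen by name from the 22298 genes listed for every liver. The files listed 46 of them under their symbols, and C5 was read under its mouse symbol Hc. Poly(A) RNA was sequenced from liver. All animals were male Lepr db/db mice, whose leptin receptor does not signal, so that they overeat and develop obesity, diabetes and fatty liver. At 5 weeks of age the mice received through the tail vein either AAV8-Vec, a liver-tropic adeno-associated virus carrying a non-targeting shRNA (Vec), or AAV8-PPARγ-shRNA, which carries 4 hairpins against Pparg (shRNA). Each vector group was then gavaged for 4 weeks, once daily, with carboxymethyl cellulose vehicle or with the uricosuric drug benzbromarone (BBR) at 25 mg per kg, and tissues were collected after a 6 h fast. This gave the groups Vec, Vec+BBR, shRNA and shRNA+BBR with 5 liver libraries each, 20 in all, which are called livers below. All mice were db/db and all carried a vector, so no lean, untreated or uninjected liver was compared, and the promoter driving the hairpins was not given in the sources used here. GEO's labels say PPAR knockdown without naming the receptor.

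The libraries held 17432903 to 25024094 counts, and 12342 genes, among them all 47 members, passed the filter on low counts. Levels below are counts scaled to library size with trimmed-mean factors (CPM), fold changes are log2 ratios from 1 edgeR quasi-likelihood fit over all 20 livers with their standard errors (SE), and a gene is called changed at a Benjamini-Hochberg adjusted p under 0.05 over all genes tested. GEO's labels do not say that the libraries of a group are separate mice, so the p-values measure only the spread between these libraries. Pparg, the targeted gene, lay between 16.4 and 35.9 CPM in Vec and between 3.24 and 7.31 CPM in shRNA livers without BBR (log2 fold change -2.12 ± 0.28, adjusted p = 4.47e-05), and between 28 and 38.3 against 7.19 and 21.8 CPM with BBR (-1.20 ± 0.26, adjusted p = 0.00843). Every shRNA liver lay below every Vec liver of the same treatment. Pparg itself was called higher with BBR in shRNA livers (1.28 ± 0.28, adjusted p = 0.00773) and not in Vec livers (0.36 ± 0.26, adjusted p = 0.372). The difference between these BBR effects was not called (0.92 ± 0.38, adjusted p = 0.208). The shRNA+BBR livers overlapped the Vec livers without BBR, so the BBR comparison in shRNA livers was not made at a constant Pparg level. In bulk liver, fewer cells of a type and less RNA per cell cannot be told apart.

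The acute phase response is the change in secreted liver proteins that follows infection or injury. Interleukin 6 acts on hepatocytes through JAK kinases and STAT3, and interleukin 1 acts through NF-κB and C/EBP factors. In mice serum amyloid A, lipocalin 2, haptoglobin, orosomucoids, hemopexin and fibrinogen rise, while albumin and several carriers fall. Hepatocytes also make most of the complement components, which converge on C3 and end in the C5 to C9 membrane attack complex, and most of the zymogens that lead to thrombin and a fibrin clot.

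Measured per transcript length as FPKM, the members covered a wide range of level. Over the 20 livers Alb (albumin) averaged 49092 ± 3920 FPKM (SD), followed by Hpx (hemopexin, which binds free haem) at 3382 ± 631, Hp (haptoglobin, which binds free haemoglobin) at 2877 ± 1044 and C3 at 1777 ± 336. At the other end stood F11 (factor XI) at 8.37 ± 2.55, Saa3 at 7.24 ± 5.5 and C6 at 5.51 ± 1.86 FPKM. Of the 47 genes, 8 averaged over 1000 FPKM, 20 between 100 and 1000, 16 between 10 and 100 and 3 under 10. The range from the lowest to the highest liver was narrow for Masp2 (105 to 141 FPKM) and wide for Saa1 (35.1 to 476).

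**Figure D1:**
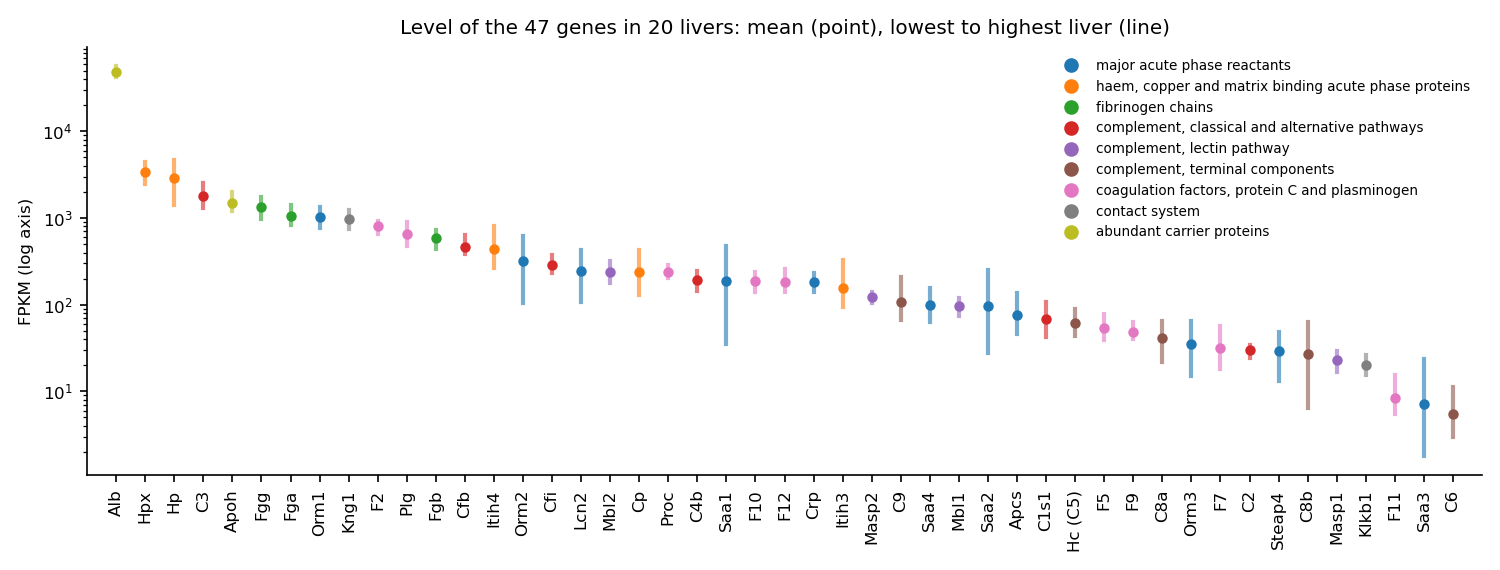
Level of each of the 47 genes in FPKM on a log axis, ordered by mean; points are means over 20 livers, lines run from the lowest to the highest liver and colours give the role. Alb stands above all others at 49092 FPKM, and the long lines of Saa1 (35.1 to 476) and C8b (6.39 to 64) mark genes with wide spread.

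Scatter between livers of a group also differed among the members. The mean coefficient of variation within groups was 4.07% for Cfb (factor B of the alternative pathway), 5.2% for Masp2 and 8.09% for F2 (prothrombin), and 37.4% for C8b, 42.6% for Saa2, 43.7% for Saa1 and 59.4% for Saa3. Saa1, Saa2, Saa3 and C8b were thus the least even from liver to liver, while Saa4 stood at 19.1%.

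Many members are chromosomal neighbours (build GRCm38, GENCODE annotation). The fibrinogen genes Fgg (chr3:83007724-83015049), Fga and Fgb (chr3:83040141-83049863) lie 11026 and 6513 bases apart, F7 (chr8:13026034-13035809) ends 1498 bases before F10 (chr8:13037308-13056676), and C8b (chr4:104766317-104804548) lies 11130 bases from C8a. Itih4 and Itih3 are 6218 bases apart at chr14:30886476-30902353 and chr14:30908572-30923760, and Saa3, Saa4, Saa1 and Saa2 stand in a row on chromosome 7, as Orm1, Orm3 and Orm2 do on chromosome 4. Some of these copies are near-identical: the transcripts of Saa1 and Saa2 agree at 94.4% of 606 aligned bases, those of Orm1 and Orm2 at 91% of 775, and those of Kng1 and Kng2 at 93.5% of 2199. Deposited counts were fractional in 18 of 20 libraries for Saa1 and Saa2, in 20 for Orm1, 19 for Orm2 and 20 for Kng1, so reads were divided between features and the split within these pairs is uncertain. Counts were also fractional in 20 libraries for C1s1 and Masp2, 19 for Plg and 12 for Klkb1, whose levels are uncertain to that extent. Cfb ends 85 bases from C2, and counts were fractional in 12 and 11 libraries.

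Promoter sequence was examined as a description, in RefSeq windows of 250 bases before to 50 after each start (GRCm38.p6), which were given for 37 of the 47 genes. On both strands, C/EBP letters TTGCNNAA stood in 19 of the members' 39 windows (48.7%), against 10.8% of all 32851 promoter windows. STAT3 letters TTCNNNGAA, which read the same on either strand, stood in 8 windows (20.5%) against 8.3%, and NF-kB letters (GGG, then 3 of any base, then TTCC) in 1 (2.56%) against 5.56%. Among the 14 windows of members that were lower with BBR in Vec livers, 3 (21.4%) held the C/EBP letters and 4 (28.6%) the STAT3 letters. The 250 bases before the start are shown for 6 members, each of which holds a match, so they do not stand for the members at large. They are Saa1, Saa2 and Orm2, called higher with BBR in shRNA livers, and Fga, Fgb and Itih4, called lower with BBR in Vec livers. The calls of Saa1, Saa2 and Orm2 were lost without shRNA+BBR replicate 3. Capitals mark a match to any of these motifs.

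Saa1 (chr7:46742981-46743230, minus strand): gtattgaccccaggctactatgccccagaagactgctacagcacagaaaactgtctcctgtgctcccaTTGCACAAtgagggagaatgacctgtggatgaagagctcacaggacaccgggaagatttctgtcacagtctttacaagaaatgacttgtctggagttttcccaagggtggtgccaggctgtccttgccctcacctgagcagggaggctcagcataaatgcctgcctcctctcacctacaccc
Saa2 (chr7:46751583-46751832, plus strand): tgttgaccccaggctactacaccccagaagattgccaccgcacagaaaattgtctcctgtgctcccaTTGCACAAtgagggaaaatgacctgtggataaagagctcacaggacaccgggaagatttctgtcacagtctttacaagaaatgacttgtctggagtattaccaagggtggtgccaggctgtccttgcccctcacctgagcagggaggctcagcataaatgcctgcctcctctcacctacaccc
Orm2 (chr4:63362199-63362448, plus strand): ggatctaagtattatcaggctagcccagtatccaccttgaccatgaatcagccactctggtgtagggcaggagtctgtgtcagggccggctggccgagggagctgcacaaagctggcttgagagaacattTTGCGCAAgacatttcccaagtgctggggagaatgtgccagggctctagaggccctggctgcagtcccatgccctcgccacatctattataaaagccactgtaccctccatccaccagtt
Fga (chr3:83025903-83026152, plus strand): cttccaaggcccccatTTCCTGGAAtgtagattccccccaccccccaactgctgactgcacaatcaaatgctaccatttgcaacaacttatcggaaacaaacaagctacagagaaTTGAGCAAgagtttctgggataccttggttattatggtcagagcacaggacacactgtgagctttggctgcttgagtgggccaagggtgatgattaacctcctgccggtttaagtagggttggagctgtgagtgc
Fgb (chr3:83049864-83050113, minus strand): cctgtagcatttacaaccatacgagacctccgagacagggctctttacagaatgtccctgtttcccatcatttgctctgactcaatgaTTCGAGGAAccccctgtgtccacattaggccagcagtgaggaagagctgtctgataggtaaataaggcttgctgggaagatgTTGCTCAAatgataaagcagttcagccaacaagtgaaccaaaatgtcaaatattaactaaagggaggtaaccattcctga
Itih4 (chr14:30886226-30886475, plus strand): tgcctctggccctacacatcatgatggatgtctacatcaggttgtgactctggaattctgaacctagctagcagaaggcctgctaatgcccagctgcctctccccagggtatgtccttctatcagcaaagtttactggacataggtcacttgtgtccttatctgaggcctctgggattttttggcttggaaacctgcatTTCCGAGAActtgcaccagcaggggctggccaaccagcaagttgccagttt

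The windows of Saa1 and Saa2 agree at 96.3% of 297 aligned bases and hold the C/EBP letters 182 and 183 bases before the start. Orm2 holds them 120 bases before the start. Fga and Fgb each hold 1 STAT3 and 1 C/EBP match, and Itih4 1 STAT3 match 51 bases before its start. Masp2, C8a, Apcs, Steap4 and F9 hold the remaining STAT3 matches. C8b and F7, whose levels fell furthest with BBR, hold none of these letter patterns in this window. Nor do F10 and Crp, which were also called lower with BBR in Vec livers.

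With BBR in Vec livers the secreted set moved down. Of the 47 members 18 were called lower and 0 higher (median log2 fold change -0.27), where edgeR called 7.88% of all genes tested lower and 7.58% higher around a median of -0.005. The 18 were 38.3% of the members. Their folds ran from C8b at -2.28 to Masp2 at -0.20. The 0 higher calls left 2 members, Apcs and Cp, higher at an unadjusted p under 0.05, and DESeq2 called 1 member higher and limma-voom 0. In either direction 29 of the 47 members and 3730 of all 12342 genes had an unadjusted edgeR p under 0.05. Levels of the Vec and Vec+BBR livers did not overlap for 15 members, 10 of them called, or 31.9% of the 47, where 8.94% of all genes did not overlap.

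In shRNA livers members were called in both directions with BBR. BBR raised 5, Saa1, Saa2, Orm2, Hp and C1s1 (10.6% of the members, where 8.37% of all genes were called higher). It lowered 10, Itih4, Fga, C3, Cfi, Mbl2, Masp1, C8a, C8b, F7 and F10 (21.3%, where 7.28% of all genes were called lower). The share raised is near that of all genes and is no result about the set. The members' median was -0.09 against 0.00799 over all genes. This count rested on single livers: without shRNA+BBR replicate 3 only 3 members were called (Hp, Masp1 and F7), when 5.31% of all genes were called. Without shRNA replicate 1 or 4 or shRNA+BBR replicate 2 or 4 the count was 8 or 9. All genes called were then 9.16% to 9.62%, against 15.7% with all livers.

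The Vec and Vec+BBR livers come from other mice than the shRNA and shRNA+BBR livers, so the directions can be set side by side. Of the 18 members called lower in Vec mice, 17 also had a fold below 0 in shRNA mice and 7 were called there: Itih4, Fga, Cfi, Mbl2, C8b, F7 and F10 (38.9% of the 18 and 70% of the 10 lowered in shRNA mice). C9 was the exception. Of all 972 genes called lower in Vec mice, 83.5% had a fold below 0 in shRNA mice and 24.3% were called lower there, and of all 899 called lower in shRNA mice, 81.4% had a fold below 0 in Vec mice and 26.3% were called lower there. All 10 members lowered in shRNA mice had a fold below 0 in Vec mice. Of the 5 raised in shRNA mice, Saa1, Saa2 and Orm2 had folds below 0 in Vec mice, none of them called there. Of all 1033 genes raised in shRNA mice, 82.6% had a fold above 0 in Vec mice. Tested directly, the difference between the BBR effects (interaction) was called for 0 members by edgeR, which called 0.0729% of all genes higher and 0.0729% lower. In that edgeR test 11 of the 47 members had an unadjusted p under 0.05, as had 2281 of all 12342 genes. DESeq2 called 2, C9 and Orm2, limma-voom 0, and edgeR without Vec+BBR replicate 1 called 1, C9.

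**Figure D2:**
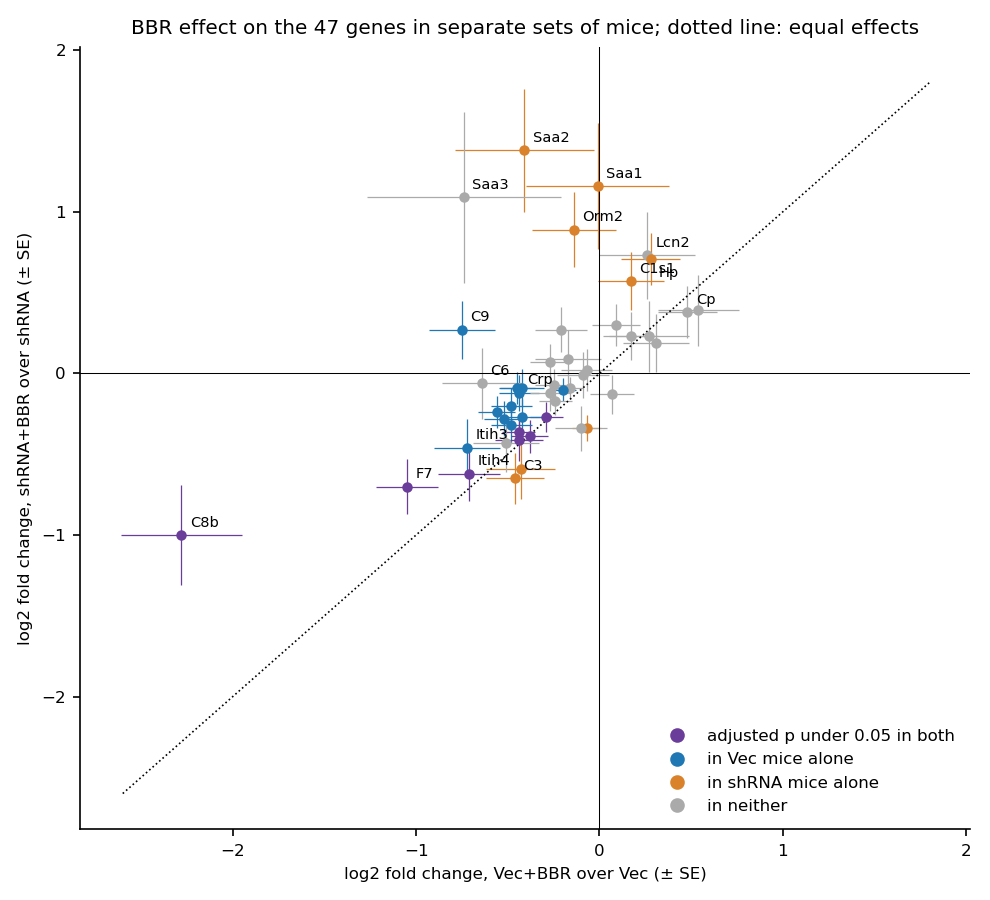
Log2 fold change with BBR in Vec mice (x axis) and in shRNA mice (y axis) for the 47 genes, with SE bars; colours show in which mice the adjusted p was under 0.05 and the dotted line marks equal effects. C8b, F7 and Itih4 lie in the lower left, and Saa1, Saa2, Saa3, Orm2 and C9 lie well above the line, with a fold above 0 in shRNA mice and below 0 in Vec mice. Of the latter, only C9 was called in Vec mice.

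Pparg knockdown by itself lowered 6 members and raised 0, where 7.91% of all genes were lower and 5.28% higher: Orm2, Hp, Masp2, Hc, C6 and C9 (12.8% of the members, median -0.17 against -0.00924). Folds lay below 0 for 38 of the 47, and the count of members called rose to 10 without Vec replicate 3, when 10.4% of all genes were called, and to 11 without Vec replicate 4, when 18.3% were, against 13.2% with all livers. With no higher call, 1 member, Cfi, was higher at an unadjusted p under 0.05, DESeq2 called 1 member higher and limma-voom 0. In either direction 13 of the 47 members and 3510 of all 12342 genes had an unadjusted edgeR p under 0.05. Under BBR the knockdown lowered Hp and Masp1 (4.26% of the members) and raised 0, where 4.82% of all genes were lower and 3.31% higher. The share lowered is near that of all genes and is no result about the set. In this comparison 9 members were higher at an unadjusted p under 0.05, DESeq2 called 3 members higher and limma-voom 0. In either direction 17 of the 47 members and 3046 of all 12342 genes had an unadjusted edgeR p under 0.05. Without Vec+BBR replicate 2, 3 or 4 or shRNA+BBR replicate 1, 2, 3 or 5 the count was 1, when 4.32% to 7.24% of all genes were called. Without Vec+BBR replicate 1 the count was 4, when 9.08% of all genes were called, against 8.13% with all livers. The knockdown comparisons use separate mice, but each shares a group with both BBR comparisons.

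**Figure D3:**
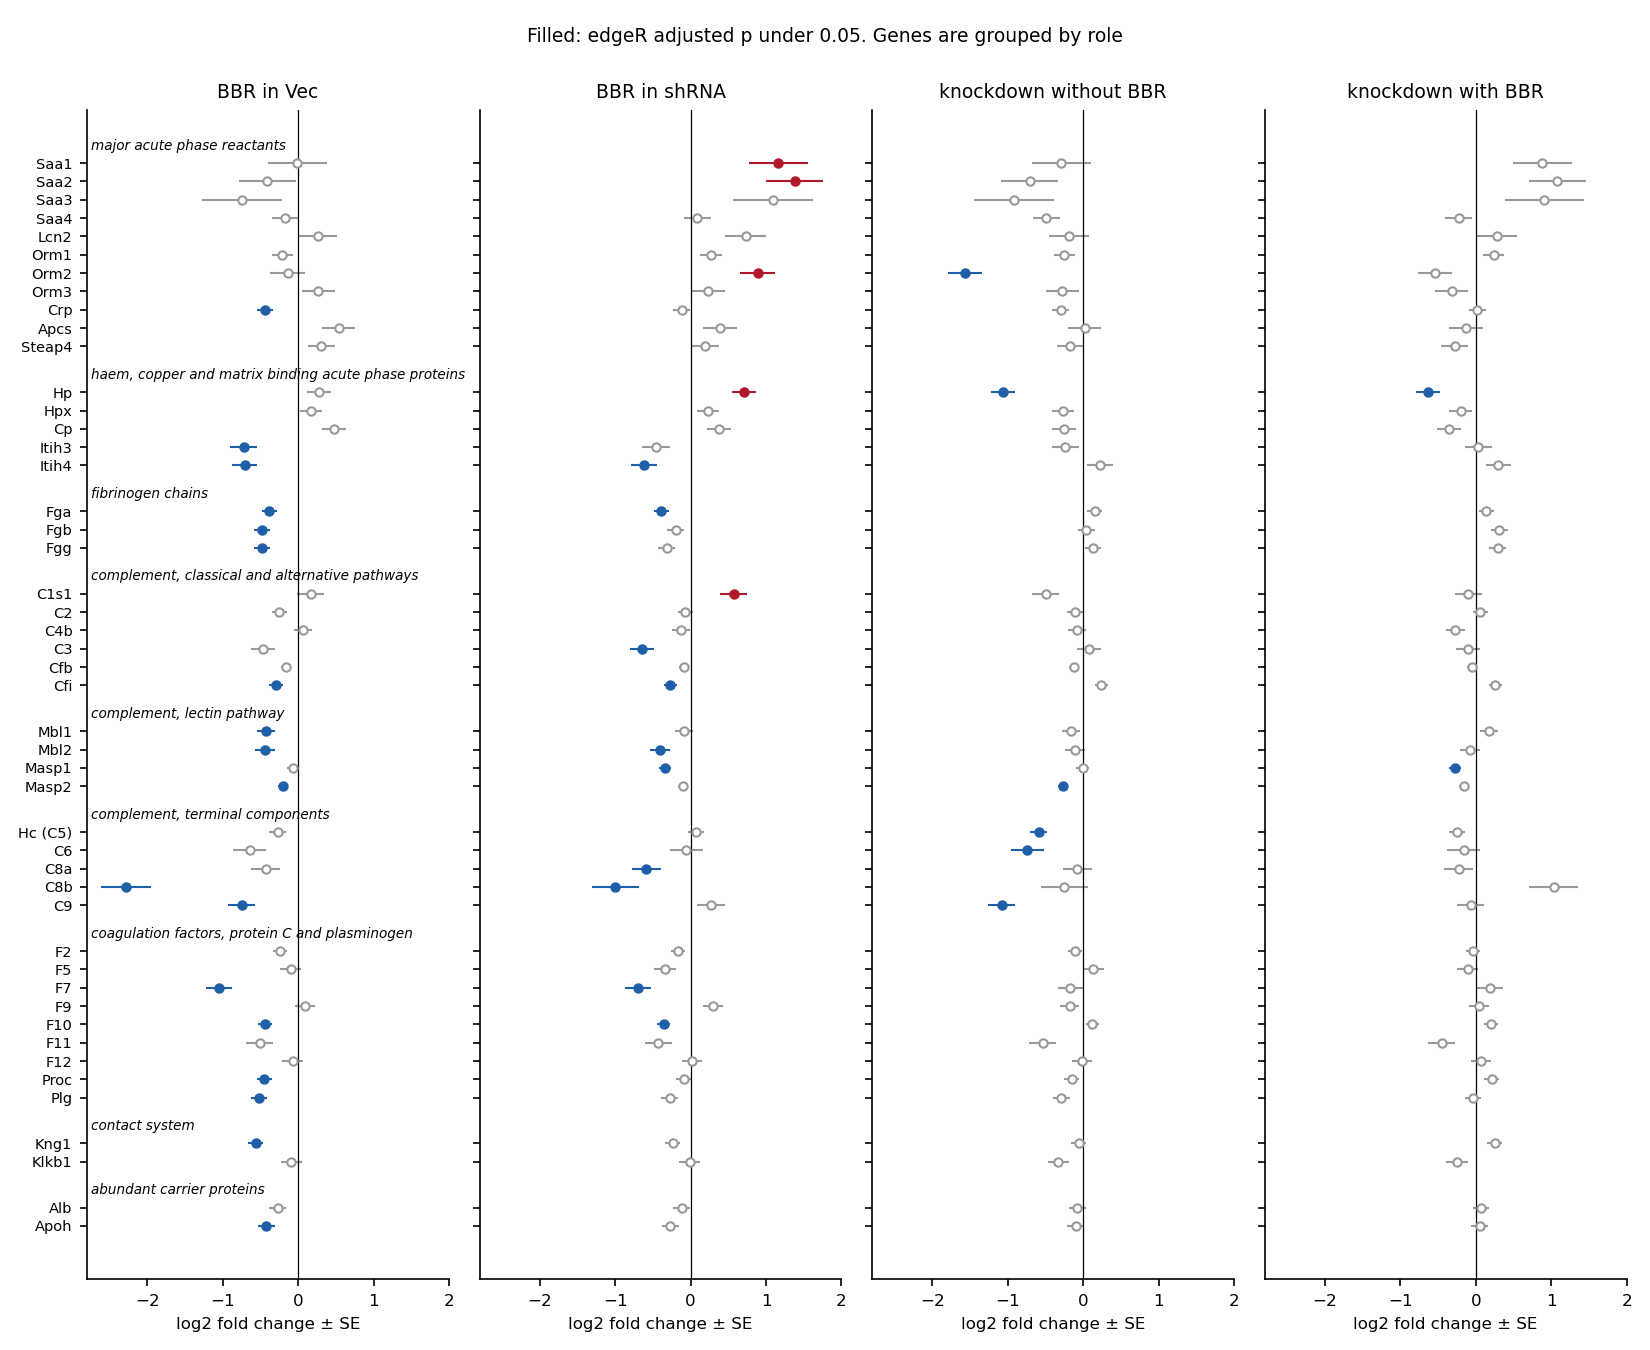
Log2 fold changes ± SE of the 47 genes, grouped by role, in 4 comparisons; filled points have an edgeR adjusted p under 0.05, blue lower and red higher. Filled blue points spread over every role in the BBR in Vec panel, while the filled red points of the BBR in shRNA panel are Saa1, Saa2, Orm2, Hp and C1s1.

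Among the 11 major acute phase reactants, BBR lowered 1 in Vec livers (9.09%, against 7.88% of all genes) and raised 3 in shRNA livers (27.3%, against 8.37%). A share of 1 in 11 is near that of all genes and is no result about the reactants. Serum amyloid A proteins travel on high-density lipoprotein and are the steepest reactants of the mouse. Saa1 stood at 156, 24.6, 106, 137 and 75.4 CPM in Vec and 156, 66.2, 105, 73.6 and 93.6 CPM in Vec+BBR livers, and at 58.6, 133, 78.6, 93.3 and 44.3 CPM in shRNA and 194, 301, 205, 103 and 108 CPM in shRNA+BBR livers. Vec replicate 2 was the lowest of all 20, and 3 of the 5 shRNA+BBR livers exceeded every other liver. The fold was -0.01 in Vec mice (adjusted p = 0.987) and 1.16 ± 0.39, adjusted p = 0.0486 in shRNA mice, with a factor of 2.23. The call did not hold without shRNA replicate 1, 3, 4 or 5 or shRNA+BBR replicate 1, 2 or 3, with no filter on low counts or with limma-voom, where adjusted p was 0.0538 to 0.139.

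Saa2 followed its near-identical neighbour. It measured 92.3, 20.1, 76.3, 65.1 and 56.5 CPM in Vec, 69.2, 41.5, 47.5, 30.4 and 45.1 in Vec+BBR, 23.4, 64.1, 46, 38.9 and 17.5 in shRNA and 89.5, 163, 129, 66.4 and 47.1 CPM in shRNA+BBR livers, and its fold with BBR in shRNA mice was 1.38 ± 0.38, adjusted p = 0.0212. The groups overlapped, and the call was lost without shRNA replicate 1 or 5 or shRNA+BBR replicate 2 or 3, where adjusted p was 0.0533 to 0.0647. The interaction of Saa2 was 1.79 ± 0.53, adjusted p = 0.108. Saa3, which macrophages and fat also make, stayed between 1.16 and 13.7 CPM with folds of -0.74 and 1.09 that were not called. Saa4, the constitutive form, had -0.17 and 0.09, also not called. Within each liver the Saa1 to Saa2 ratio in FPKM ranged from 1.27 to 2.64.

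Orosomucoids are acidic glycoproteins that carry drugs and lipids. Orm1, with 1016 ± 142 FPKM (SD, n = 20) the most abundant reactant, measured 960, 899, 934, 718 and 738 CPM in Vec, 901, 619, 726, 639 and 781 in Vec+BBR, 747, 788, 760, 699 and 589 in shRNA and 714, 1075, 1043, 821 and 675 CPM in shRNA+BBR livers, and was called in no comparison. Orm2 was different. Its level was 448, 332, 260, 477 and 216 CPM in Vec and 82.7, 161, 126, 115 and 101 CPM in shRNA livers, without overlap (knockdown without BBR -1.57 ± 0.23, adjusted p = 0.000152, a factor of 0.338). With BBR it stood at 465, 271, 282, 255 and 301 CPM in Vec and 145, 244, 295, 220 and 182 CPM in shRNA livers, so that BBR raised it in shRNA mice (0.89 ± 0.23, adjusted p = 0.0166) and not detectably in Vec mice (-0.14 ± 0.23, adjusted p = 0.729). The shRNA and shRNA+BBR livers overlapped. The knockdown call was kept under each of the 18 alternatives tried, and the BBR call was lost without shRNA+BBR replicate 3, where adjusted p was 0.0596. The Orm1 to Orm2 ratio in FPKM was 1.5 to 3.59 in Vec and 4.89 to 9.02 in shRNA livers, which is unaffected by library scaling but not by how reads were split between the copies.

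Crp (C-reactive protein, a pentraxin that is a minor reactant in mice) was the reactant that fell with BBR in Vec livers. It measured 423, 419, 305, 390 and 350 CPM in Vec and 299, 248, 285, 276 and 283 CPM in Vec+BBR livers, without overlap (log2 fold change -0.44 ± 0.11 (SE), adjusted p = 0.0101). Every Vec+BBR liver thus lay below every Vec liver. In shRNA livers it measured 364, 290, 348, 273 and 260 CPM without and 295, 250, 306, 249 and 315 CPM with BBR, which overlapped (-0.12 ± 0.11, adjusted p = 0.469). Its neighbour Apcs, the other short pentraxin, had folds of 0.54 and 0.39 and was not called. Lcn2, which withholds iron from bacteria, measured 130 to 264 CPM in shRNA and 190 to 409 CPM in shRNA+BBR livers, which overlapped (0.73 ± 0.27, adjusted p = 0.0639 with BBR in shRNA mice). Orm3 and Steap4 were called in no comparison, with folds between -0.32 and 0.31.

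**Figure D4:**
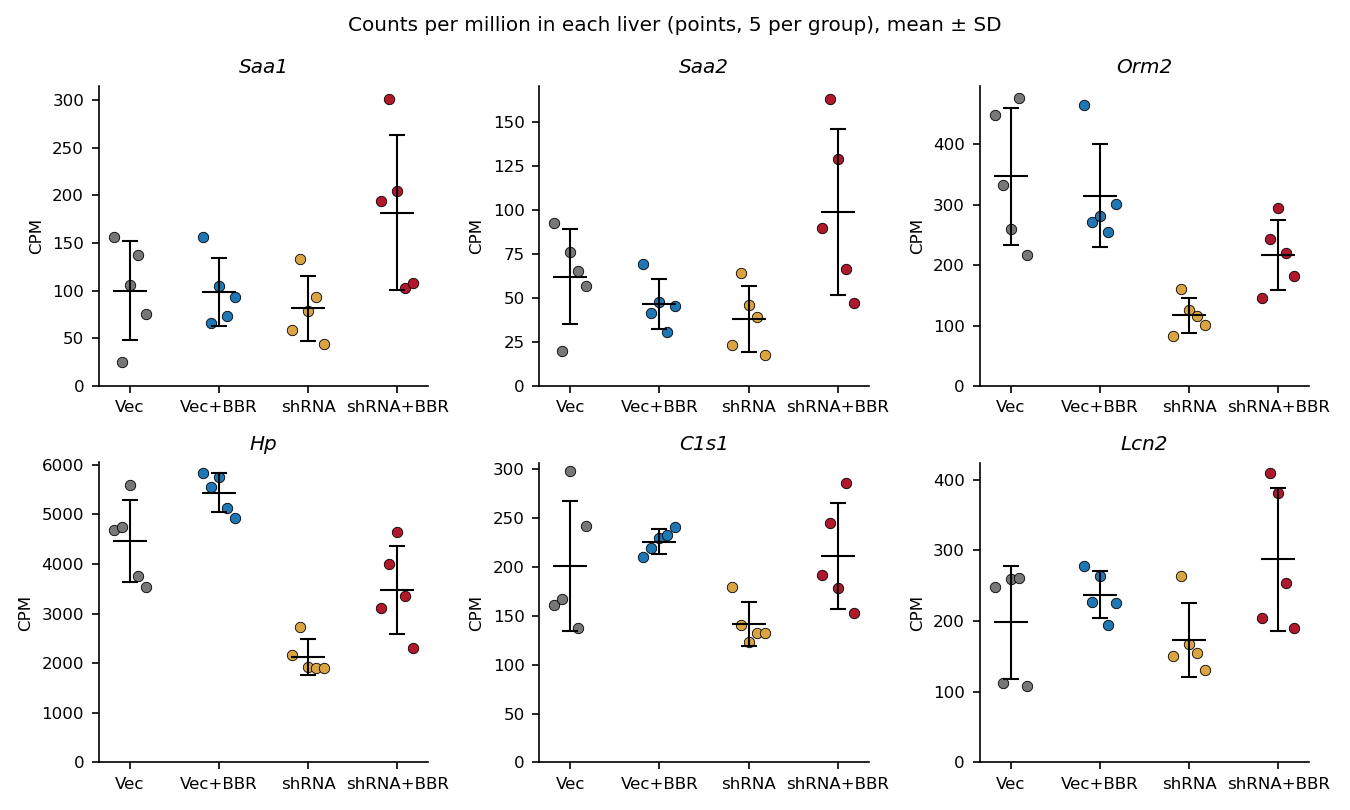
CPM of 6 members in each liver, 5 points per group, with mean ± SD bars. Hp and Orm2 are low in shRNA livers, without overlap with Vec. Their means are higher in shRNA+BBR livers, which overlap the shRNA livers. Saa1, Saa2, C1s1 and Lcn2 overlap between groups.

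Haptoglobin was called in 3 of the 4 comparisons. Hp measured 4689, 4754, 5592, 3767 and 3531 CPM in Vec and 2165, 2734, 1921, 1911 and 1901 CPM in shRNA livers, so that every shRNA liver lay below every Vec liver (log2 fold change -1.07 ± 0.16 (SE), adjusted p = 0.000163, a factor of 0.476). With BBR the levels were 5841, 5548, 5746, 5120 and 4933 CPM in Vec and 3119, 3996, 4635, 3345 and 2297 CPM in shRNA livers, again without overlap (-0.64 ± 0.16, adjusted p = 0.0167). BBR raised Hp in shRNA mice (0.71 ± 0.16, adjusted p = 0.00927), while in Vec mice the fold was 0.28 ± 0.16, adjusted p = 0.244. The shRNA and shRNA+BBR livers overlapped. The 3 calls were kept under all 18 alternatives. Hpx measured 6054, 4192, 5747, 5942 and 3817 CPM in Vec, 5678, 5379, 6622, 5534 and 5759 in Vec+BBR, 4195, 5080, 4301, 4013 and 3836 in shRNA and 4473, 6053, 6287, 4432 and 3958 CPM in shRNA+BBR livers, and was not called (knockdown without BBR -0.27 ± 0.15, adjusted p = 0.238). The Hpx to Hp ratio in FPKM was 0.791 to 1.42 in Vec and 1.67 to 2.01 in shRNA livers. Cp (ceruloplasmin, the copper ferroxidase) had levels of 542 to 687 CPM in Vec and 788 to 906 CPM in Vec+BBR livers, without overlap, but missed the threshold (0.48 ± 0.16, adjusted p = 0.0519).

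Itih3, an inter-alpha-trypsin inhibitor heavy chain that is linked to hyaluronan, and the related acute phase protein Itih4 fell with BBR in Vec livers. Itih4 measured 1411, 1427, 1010, 2504 and 1284 CPM in Vec and 861, 924, 978, 933 and 987 CPM in Vec+BBR livers (log2 fold change -0.71 ± 0.17 (SE), adjusted p = 0.00887), and 1659, 2091, 1562, 1758 and 1845 CPM in shRNA and 1338, 1187, 1107, 871 and 1279 CPM in shRNA+BBR livers (-0.62 ± 0.17, adjusted p = 0.0213). In neither pair did the groups overlap. Itih3 measured 566, 609, 416, 987 and 446 CPM in Vec and 295, 362, 414, 370 and 393 CPM in Vec+BBR livers (-0.72 ± 0.18, adjusted p = 0.00943), and 505, 669, 433, 474 and 481 CPM in shRNA and 406, 337, 408, 338 and 377 CPM in shRNA+BBR livers (-0.46 ± 0.18, adjusted p = 0.0804). Vec replicate 4 was far above the other Vec livers in both genes: without it the folds in Vec mice were -0.45 for Itih4 (adjusted p = 0.0211) and -0.47 for Itih3 (adjusted p = 0.0257). The Itih4 call in shRNA mice was lost without shRNA replicate 2 or shRNA+BBR replicate 3 or 4, where adjusted p was 0.0522 to 0.0612.

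The 3 fibrinogen chains, which assemble into the clottable protein, fell together with BBR in Vec livers. Fga measured 2517, 2613, 1839, 2598 and 2400 CPM in Vec and 1913, 1812, 1834, 1726 and 1940 CPM in Vec+BBR livers (log2 fold change -0.38 ± 0.10 (SE), adjusted p = 0.0148). Fgb measured 2610, 2863, 1966, 2729 and 2357 CPM in Vec and 2131, 1645, 1713, 1585 and 1922 CPM in Vec+BBR livers (-0.48 ± 0.11, adjusted p = 0.00515). Fgg, the most abundant chain per length at 1347 ± 241 FPKM (SD, n = 20), measured 2719, 2859, 1879, 2731 and 2303 CPM in Vec and 2174, 1635, 1713, 1575 and 1848 CPM in Vec+BBR livers (-0.48 ± 0.11, adjusted p = 0.00713). Vec replicate 3 was the lowest Vec liver in all 3 chains and was the one that overlapped the Vec+BBR range. In shRNA mice Fga fell, measuring 2626, 2918, 2562, 2661 and 2488 CPM in shRNA and 2252, 1798, 1888, 1902 and 2306 CPM in shRNA+BBR livers, without overlap (-0.39 ± 0.10, adjusted p = 0.0166, lost without shRNA+BBR replicate 3, where adjusted p was 0.0535). Fgb stood at 2612, 2519, 2720, 2719 and 2274 CPM in shRNA and 2063, 2352, 2436, 2052 and 2241 CPM in shRNA+BBR livers (-0.20 ± 0.11, adjusted p = 0.183). Fgg stood at 2867, 2675, 2906, 2884 and 2313 CPM in shRNA and 2153, 2103, 2303, 2060 and 2295 CPM in shRNA+BBR livers (-0.32 ± 0.11, adjusted p = 0.0571), without overlap and short of the threshold. The ratios between chains stayed narrow. The Fgg to Fgb ratio in FPKM was 2 to 2.46 and the Fga to Fgb ratio 1.38 to 2.11 over the 20 livers. The knockdown folds of the chains ran from 0.04 to 0.15 without BBR and from 0.14 to 0.31 with BBR, none called.

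**Figure D5:**
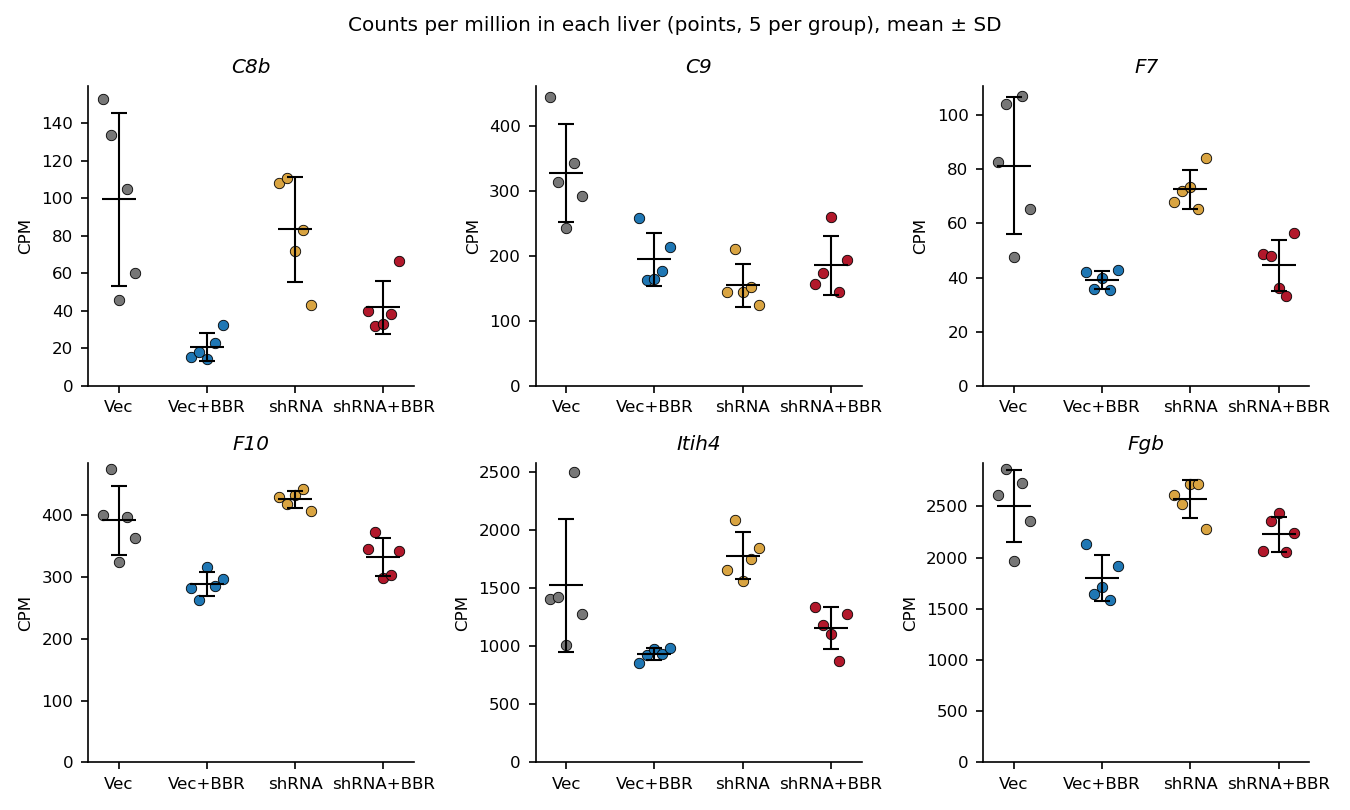
CPM of 6 members in each liver, 5 points per group, with mean ± SD bars. C8b falls from 45.9 to 153 CPM in Vec to 14.2 to 32.3 CPM in Vec+BBR livers, F7, F10 and Itih4 are lower with BBR in both vector groups without overlap, and C9 is highest in Vec livers.

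Of the 6 members of the classical and alternative pathways of complement, 1 fell with BBR in Vec livers (16.7%, against 7.88% of all genes), and 2 fell (33.3%, against 7.28%) and 1 rose (16.7%, against 8.37%) in shRNA livers. C3, the component on which all pathways converge, measured 8017, 9573, 5691, 12973 and 8148 CPM in Vec and 5771, 6603, 6381, 6480 and 6962 CPM in Vec+BBR livers (-0.46 ± 0.16, adjusted p = 0.0572), and 8476, 9634, 9193, 8727 and 11039 CPM in shRNA and 6741, 5749, 4918, 5139 and 7489 CPM in shRNA+BBR livers, without overlap (-0.65 ± 0.16, adjusted p = 0.0152, lost without shRNA+BBR replicate 3, where adjusted p was 0.0536). Cfi (factor I, the protease that cuts C3b and C4b) measured 593, 648, 536, 665 and 541 CPM in Vec and 507, 432, 541, 469 and 487 CPM in Vec+BBR livers (-0.29 ± 0.09, adjusted p = 0.0309) and 785, 686, 642, 760 and 645 CPM in shRNA and 581, 590, 559, 536 and 646 CPM in shRNA+BBR livers (-0.27 ± 0.09, adjusted p = 0.0432). Both Cfi calls were small, and the groups overlapped. The first was lost without Vec replicate 2 or 4 or Vec+BBR replicate 2, 4 or 5, with no filter on low counts or in a fit of the groups compared alone, where adjusted p was 0.0536 to 0.0797 and the second without shRNA replicate 1, 2 or 4 or shRNA+BBR replicate 1, 2, 3 or 4, with no filter on low counts or in a fit of the groups compared alone, where adjusted p was 0.0569 to 0.108. C1s1 (the C1s protease that cuts C4 and C2) rose in shRNA mice, measuring 180, 141, 123, 132 and 132 CPM in shRNA and 192, 245, 179, 286 and 153 CPM in shRNA+BBR livers (0.57 ± 0.18, adjusted p = 0.0405), with overlapping groups, and stood at 161, 167, 298, 138 and 242 CPM in Vec and 210, 219, 230, 233 and 241 CPM in Vec+BBR livers. This call was lost without shRNA replicate 2, 3, 4 or 5 or shRNA+BBR replicate 2, 3 or 4, where adjusted p was 0.0606 to 0.115.

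C4b, C2 and Cfb, which form the C3 convertases and lie together in the H2 region of chromosome 17, were called in no comparison, with folds between -0.27 and 0.07. Cfb was the most even member, at 1232 to 1257 CPM in Vec and 1039 to 1196 CPM in Vec+BBR livers. Of 8 tested neighbours from that region, 2 were called lower with knockdown without BBR, where 7.91% of all genes were, H2-Eb1 among them (-1.16 ± 0.37, adjusted p = 0.0421). H2-Eb1 was also higher with BBR in shRNA livers (1.31 ± 0.37, adjusted p = 0.0236). H2-Q10 stood at 770 to 1407 CPM in Vec and 1232 to 3033 CPM in Vec+BBR livers, was higher with BBR in Vec mice (1.05 ± 0.26, adjusted p = 0.00912) and was lower with knockdown under BBR (-0.90 ± 0.26, adjusted p = 0.034). The summed level of those neighbours ranged from 1386 to 5230 CPM between livers. H2-K1, called in no comparison, differed widely within groups, at 105 to 1167 CPM in Vec, 92 to 1299 in Vec+BBR, 74.4 to 1142 in shRNA and 106 to 762 CPM in shRNA+BBR livers. What sets this spread between livers in the region was not tested.

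The lectin pathway starts when mannose-binding lectins meet microbial sugars and activate the MASP proteases. Mbl2, its most abundant member per length at 240 ± 45.7 FPKM (SD, n = 20), measured 311, 386, 233, 274 and 357 CPM in Vec and 206, 236, 200, 296 and 207 CPM in Vec+BBR livers (log2 fold change -0.44 ± 0.13 (SE), adjusted p = 0.0204), and 310, 258, 315, 289 and 276 CPM in shRNA and 231, 228, 208, 192 and 230 CPM in shRNA+BBR livers, the latter without overlap (-0.41 ± 0.13, adjusted p = 0.0329). Mbl1 fell in Vec livers, measuring 183, 179, 157, 133 and 152 CPM in Vec and 157, 95.1, 112, 109 and 128 CPM in Vec+BBR livers (-0.42 ± 0.12, adjusted p = 0.0175) and stood at 142, 139, 164, 138 and 134 CPM in shRNA and 132, 147, 147, 119 and 131 CPM in shRNA+BBR livers (-0.09 ± 0.12, adjusted p = 0.628). The Mbl2 call in Vec mice was lost without Vec replicate 2 or Vec+BBR replicate 3 or 5 or in a fit of the groups compared alone, where adjusted p was 0.0529 to 0.0771, that in shRNA mice without shRNA replicate 1, 3, 4 or 5 or shRNA+BBR replicate 2, 3 or 4, where adjusted p was 0.0505 to 0.0866, and the Mbl1 call without Vec replicate 1 or Vec+BBR replicate 2 or 4 or in a fit of the groups compared alone, where adjusted p was 0.0508 to 0.0618.

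The proteases showed small shifts between even groups. Masp2, which cuts C4 and C2, measured 170, 209, 183, 178 and 185 CPM in Vec and 158, 152, 156, 152 and 151 CPM in shRNA livers (knockdown -0.27 ± 0.07, adjusted p = 0.0121), without overlap, and 167, 151, 165, 155 and 166 CPM in Vec+BBR and 160, 142, 140, 138 and 139 CPM in shRNA+BBR livers. Its fall with BBR in Vec mice (-0.20 ± 0.07, adjusted p = 0.0448) was lost without Vec replicate 2, 4 or 5 or Vec+BBR replicate 2, 3, 4 or 5, with no filter on low counts or in a fit of the groups compared alone, where adjusted p was 0.0507 to 0.128. Masp1, which activates Masp2, measured 125, 124, 109, 106 and 110 CPM in shRNA and 90, 81, 89.5, 101 and 91.9 CPM in shRNA+BBR livers, without overlap (-0.34 ± 0.08, adjusted p = 0.0126), and 115, 101, 114, 118 and 130 CPM in Vec and 98.2, 117, 114, 104 and 118 CPM in Vec+BBR livers (-0.07 ± 0.08, adjusted p = 0.634). Under BBR the knockdown livers were lower in Masp1 (-0.28 ± 0.08, adjusted p = 0.0361), a call lost without Vec+BBR replicate 2, 3, 4 or 5 or shRNA+BBR replicate 1, 2, 3 or 5, with no filter on low counts or in a fit of the groups compared alone, where adjusted p was 0.0502 to 0.124.

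The terminal components, which build the membrane attack complex, held the largest change of the set. C8b, the beta chain of C8, measured 153, 134, 45.9, 105 and 60.3 CPM in Vec and 15.5, 17.9, 14.2, 22.9 and 32.3 CPM in Vec+BBR livers, without overlap (log2 fold change -2.28 ± 0.33 (SE), adjusted p = 0.000233, a factor of 0.206). In shRNA mice it measured 108, 111, 72, 83.4 and 43.1 CPM without and 40, 31.9, 32.9, 38.2 and 66.5 CPM with BBR, and the groups overlapped (-1.0 ± 0.31, adjusted p = 0.0377, lost without shRNA replicate 1, 2 or 4 or shRNA+BBR replicate 1, 2, 3 or 4, where adjusted p was 0.0553 to 0.103). The interaction was 1.28 ± 0.44, adjusted p = 0.15, and the knockdown livers under BBR were higher by a fold that just missed the threshold (1.03 ± 0.32, adjusted p = 0.0505). C8a, the alpha chain from the neighbouring gene, measured 165, 156, 168, 218 and 192 CPM in Vec and 127, 155, 85.8, 151 and 147 CPM in Vec+BBR livers (-0.43 ± 0.19, adjusted p = 0.119), and 230, 172, 171, 168 and 110 CPM in shRNA and 110, 114, 109, 77.4 and 156 CPM in shRNA+BBR livers (-0.59 ± 0.19, adjusted p = 0.0393, lost without shRNA replicate 1, 2, 3 or 4 or shRNA+BBR replicate 1, 2, 3 or 4 or in a fit of the groups compared alone, where adjusted p was 0.0512 to 0.112). The C8a to C8b ratio in FPKM was 0.673 to 2.29 in Vec and 2.83 to 5.45 in Vec+BBR livers, without overlap, and 0.985 to 1.59 against 1.27 to 2.23 in shRNA livers.

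C9, the pore-forming subunit, had its highest levels in Vec livers. It measured 446, 314, 243, 344 and 292 CPM in Vec, 258, 163, 164, 177 and 214 in Vec+BBR, 144, 211, 144, 152 and 124 in shRNA and 157, 174, 261, 144 and 194 CPM in shRNA+BBR livers. BBR lowered it in Vec mice (-0.75 ± 0.18, adjusted p = 0.00843) and the knockdown lowered it without BBR (-1.08 ± 0.18, adjusted p = 0.00048); both comparisons share the Vec livers. With BBR in shRNA mice the fold was 0.27 ± 0.18, adjusted p = 0.311, and the interaction was 1.01 ± 0.26, adjusted p = 0.0886. That interaction passed with DESeq2 (adjusted p = 0.0145) and without Vec+BBR replicate 1 (adjusted p = 0.0479). Hc, which encodes C5, measured 399, 401, 346, 490 and 348 CPM in Vec and 242, 304, 278, 249 and 247 CPM in shRNA livers, without overlap (-0.59 ± 0.11, adjusted p = 0.000911), 335, 336, 308, 327 and 341 CPM in Vec+BBR and 231, 284, 337, 251 and 281 CPM in shRNA+BBR livers. C6 fell with knockdown, measuring 33.4, 24, 17.4, 18.6 and 17.1 CPM in Vec and 18.6, 15.8, 11.9, 12.2 and 7.75 CPM in shRNA livers (-0.74 ± 0.22, adjusted p = 0.0309, lost without Vec replicate 1 or 2 or shRNA replicate 3, 4 or 5 or in a fit of the groups compared alone, where adjusted p was 0.0647 to 0.112) and measured 9.92, 17.8, 10.4, 14.2 and 18.5 CPM in Vec+BBR and 10.9, 13.8, 11.7, 13.3 and 13.9 CPM in shRNA+BBR livers.

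Of the 9 coagulation factors, protein C and plasminogen, BBR lowered 4 in Vec livers (44.4%, against 7.88% of all genes) and 2 in shRNA livers (22.2%, against 7.28%). The furthest knockdown folds in the role were those of F11 (factor XI), at -0.54 ± 0.18, adjusted p = 0.0519 without BBR and -0.45 ± 0.18, adjusted p = 0.129 with BBR, neither called. F7 (factor VII, which with tissue factor starts clotting) fell furthest. It measured 82.6, 104, 47.7, 107 and 65.3 CPM in Vec and 41.9, 35.7, 39.8, 35.5 and 42.7 CPM in Vec+BBR livers (log2 fold change -1.05 ± 0.17 (SE), adjusted p = 0.000723, a factor of 0.481), and 68, 71.9, 73.4, 65.2 and 84 CPM in shRNA and 48.7, 47.9, 36.3, 33.3 and 56.4 CPM in shRNA+BBR livers (-0.70 ± 0.17, adjusted p = 0.0139, a factor of 0.614). F10 (factor X, which cleaves prothrombin), its neighbour, measured 401, 475, 324, 397 and 364 CPM in Vec and 283, 263, 317, 285 and 297 CPM in Vec+BBR livers (-0.44 ± 0.09, adjusted p = 0.00294), and 429, 419, 433, 443 and 407 CPM in shRNA and 345, 373, 299, 304 and 342 CPM in shRNA+BBR livers (-0.36 ± 0.09, adjusted p = 0.0155, lost without shRNA+BBR replicate 3, where adjusted p was 0.0544). None of these 4 pairs of groups overlapped. The F10 to F7 ratio in FPKM was 3.6 to 6.54 in Vec and 6.53 to 7.81 in Vec+BBR livers.

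Plg (plasminogen, the zymogen of the enzyme that dissolves fibrin) measured 2227, 2835, 1874, 2417 and 2131 CPM in Vec and 1668, 1439, 1572, 1602 and 1707 CPM in Vec+BBR livers (-0.52 ± 0.11, adjusted p = 0.00263), and 1874, 2151, 1837, 1662 and 1880 CPM in shRNA and 1693, 1578, 1478, 1311 and 1698 CPM in shRNA+BBR livers (-0.28 ± 0.11, adjusted p = 0.0769). Proc (protein C, the anticoagulant protease) measured 426, 491, 375, 353 and 352 CPM in Vec and 334, 259, 296, 285 and 291 CPM in Vec+BBR livers (-0.45 ± 0.10, adjusted p = 0.00452), and 358, 343, 374, 345 and 380 CPM in shRNA and 344, 394, 324, 298 and 333 CPM in shRNA+BBR livers (-0.09 ± 0.10, adjusted p = 0.549). In Vec mice neither gene overlapped between groups. F2, the most abundant of the 9 per length at 811 ± 71.9 FPKM (SD, n = 20), measured 1735, 2115, 1670, 1793 and 1658 CPM in Vec, 1497, 1370, 1644, 1539 and 1551 in Vec+BBR, 1711, 1685, 1533, 1589 and 1798 in shRNA and 1688, 1477, 1334, 1398 and 1515 CPM in shRNA+BBR livers, and its fold in Vec mice missed the threshold (-0.24 ± 0.09, adjusted p = 0.0693). F5, F9, F11 and F12 were not called in any comparison. Their folds with BBR in Vec mice ran from -0.51 for F11 to 0.09 for F9. Of the vitamin K dependent zymogens, F7, F10 and Proc were thus called lower there and F2 and F9 were not.

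Kng1 (kininogen, the source of bradykinin) measured 2246, 2848, 2108, 2354 and 2016 CPM in Vec and 1814, 1365, 1633, 1426 and 1631 CPM in Vec+BBR livers, without overlap (log2 fold change -0.56 ± 0.10 (SE), adjusted p = 0.00137), and 2262, 2017, 2361, 2344 and 2108 CPM in shRNA and 1810, 2121, 1919, 1813 and 1703 CPM in shRNA+BBR livers (-0.24 ± 0.10, adjusted p = 0.103). Reads may be shared with its near-identical copy Kng2. Klkb1 (prekallikrein, which releases bradykinin) was called in no comparison (-0.09 ± 0.14, adjusted p = 0.708 with BBR in Vec mice). Apoh (beta-2-glycoprotein I, which binds phospholipids) fell in Vec mice, measuring 2239, 2724, 1741, 2040 and 1672 CPM in Vec and 1685, 1324, 1687, 1497 and 1617 CPM in Vec+BBR livers (-0.42 ± 0.11, adjusted p = 0.0184, lost without Vec replicate 2 or Vec+BBR replicate 2 or in a fit of the groups compared alone, where adjusted p was 0.052 to 0.0717) and measured 1919, 1927, 1879, 1942 and 2055 CPM in shRNA and 1819, 1621, 1519, 1426 and 1680 CPM in shRNA+BBR livers (-0.27 ± 0.11, adjusted p = 0.107).

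Albumin was not called. Alb measured 107564, 123615, 111121, 97797 and 108542 CPM in Vec, 98657, 75123, 107068, 87852 and 87147 in Vec+BBR, 109361, 93536, 102301, 110987 and 104568 in shRNA and 88761, 97539, 98438, 106558 and 87592 CPM in shRNA+BBR livers (-0.27 ± 0.11, adjusted p = 0.114 in Vec mice and -0.12 ± 0.11, adjusted p = 0.473 in shRNA mice). The 47 members together took 14.7% ± 0.353 of a library's counts in Vec, 13.5% ± 0.83 in Vec+BBR, 14.9% ± 0.548 in shRNA and 13.4% ± 0.528 in shRNA+BBR livers (SD, n = 5), most of it albumin. Without Alb the shares were 4.39% ± 0.572, 4.11% ± 0.143, 4.31% ± 0.222 and 3.8% ± 0.177.

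The pathway around the members was read from lists of genes that are no members. The counts of each list are read against the shares of all genes called, which were 7.58% higher and 7.88% lower with BBR in Vec mice, 8.37% and 7.28% with BBR in shRNA mice, 5.28% and 7.91% with knockdown and 3.31% and 4.82% with knockdown under BBR; a count near these shares is no result about the list. Of 28 tested cytokines, receptors and transcription factors of the response, BBR raised 4 and lowered 3 in Vec livers (14.3% and 10.7%), and raised 3 and lowered 1 in shRNA livers (10.7% and 3.57%), shares near those of all genes. Osmr (a receptor chain for oncostatin M) rose in both (1.37 ± 0.24, adjusted p = 0.00111 in Vec and 0.84 ± 0.24, adjusted p = 0.0269 in shRNA mice), but stayed at or under 3.62 CPM. Il1rn (the interleukin 1 receptor antagonist) also rose in both (0.73 ± 0.17, adjusted p = 0.00684 and 1.16 ± 0.18, adjusted p = 0.00207), with 3.85 to 6.41 CPM in Vec and 7.54 to 10.5 CPM in Vec+BBR livers, and 1.71 to 2.9 CPM in shRNA and 3.72 to 7.06 CPM in shRNA+BBR livers. Nfkbiz (an inducible NF-κB cofactor) rose in Vec mice (0.66 ± 0.16, adjusted p = 0.0086), and Lifr (the LIF receptor) fell there (-0.60 ± 0.17, adjusted p = 0.0201). In shRNA mice Il1b rose at levels of at most 1.99 CPM (1.28 ± 0.42, adjusted p = 0.0433). Without BBR the knockdown raised 1 and lowered 4 of the 28 (3.57% and 14.3%), and with BBR it lowered 2 (7.14%). It lowered Il1rn (-1.19 ± 0.18, adjusted p = 0.000229), Nfkbiz (-0.74 ± 0.17, adjusted p = 0.00629) and Cebpa (a C/EBP factor, -0.45 ± 0.11, adjusted p = 0.00833), and raised Jak1 (0.54 ± 0.08, adjusted p = 0.000212). Under BBR it lowered Il1rn (-0.76 ± 0.17, adjusted p = 0.0104) and Nfkbiz (-1.18 ± 0.16, adjusted p = 0.000301). Some of these calls were lost without a single library or in another setting: that of Osmr with BBR in shRNA mice without shRNA replicate 1, 2 or 3 or shRNA+BBR replicate 3 or 4 (adjusted p 0.0505 to 0.0932), that of Lifr with BBR in Vec mice without Vec replicate 1, 2 or 4 or Vec+BBR replicate 3 or in a fit of the groups compared alone (adjusted p 0.0508 to 0.065), and that of Il1b with BBR in shRNA mice without shRNA replicate 1, 2 or 5 or shRNA+BBR replicate 3 or 4, with no filter on low counts or in a fit of the groups compared alone (adjusted p 0.0547 to 0.156).

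A further list was drawn up as other positive acute phase genes, but the direction each takes in the mouse response was not checked. Of its 22 tested genes, BBR lowered 14 (63.6%) and raised 1 (4.55%) in Vec livers (median -0.44, against -0.005 over all genes). The 14 include Mug1, Itih2 and Ambp, so their count is not one of positive reactants alone. In shRNA livers BBR lowered 8 (36.4%) and raised 1 (median -0.29, against 0.00799). Serpina1c (an alpha-1-antitrypsin) fell in both, with 3115 to 6821 CPM in Vec and 1518 to 2162 CPM in Vec+BBR livers (-1.52 ± 0.21, adjusted p = 0.000163), with a fold of -0.71 ± 0.21, adjusted p = 0.0261 in shRNA mice. Mt2 (metallothionein, -1.28 ± 0.29, adjusted p = 0.00518), Hamp (hepcidin, -1.21 ± 0.33, adjusted p = 0.0169) and Hamp2 (-1.26 ± 0.40, adjusted p = 0.0386) fell in Vec mice. Mug1 (a murinoglobulin protease inhibitor, -1.09 ± 0.22, adjusted p = 0.00602) and Serpina3m (-0.61 ± 0.15, adjusted p = 0.0147) fell in shRNA mice. Mug1 was also called lower in Vec mice, with 1334 to 3296 CPM in Vec and 891 to 1083 CPM in Vec+BBR livers. Without BBR the knockdown raised 1 and lowered 3 of the 22 (4.55% and 13.6%), and with BBR it raised 3 and lowered 1 (13.6% and 4.55%). It lowered Itih1 (-0.33 ± 0.09, adjusted p = 0.0186) and Serpina1a (-0.46 ± 0.15, adjusted p = 0.0395) and raised Serpina3m (0.49 ± 0.15, adjusted p = 0.0376). Under BBR it raised Hamp2 (1.68 ± 0.41, adjusted p = 0.0152), Mt1 (0.99 ± 0.27, adjusted p = 0.0257) and Lrg1 (0.46 ± 0.12, adjusted p = 0.0193). The alpha-1-antitrypsin and murinoglobulin genes are families of near-identical copies, so the split of reads among them is uncertain. Some of these calls were lost without a single library or in another setting: that of Serpina1c with BBR in shRNA mice without shRNA replicate 2 or shRNA+BBR replicate 3 or 4 (adjusted p 0.0662 to 0.0828), that of Hamp with BBR in Vec mice without Vec replicate 1 or 2 or in a fit of the groups compared alone (adjusted p 0.0503 to 0.0733), that of Hamp2 with BBR in Vec mice without Vec replicate 1, 2 or 4 or Vec+BBR replicate 2, 3, 4 or 5 or in a fit of the groups compared alone (adjusted p 0.0521 to 0.114), that of Itih1 with the knockdown alone without Vec replicate 2 or shRNA replicate 4 or in a fit of the groups compared alone (adjusted p 0.051 to 0.0638), that of Serpina1a with the knockdown alone without Vec replicate 1 or 2 or shRNA replicate 1, 3, 4 or 5, with no filter on low counts, with limma-voom or in a fit of the groups compared alone (adjusted p 0.0526 to 0.134), that of Serpina3m with the knockdown alone without Vec replicate 1, 2 or 3 or shRNA replicate 1, 2, 4 or 5 (adjusted p 0.0607 to 0.0932), that of Mt1 with the knockdown under BBR without Vec+BBR replicate 2, 3 or 4 or shRNA+BBR replicate 2 or 5 (adjusted p 0.0537 to 0.0778), and that of Lrg1 with the knockdown under BBR without shRNA+BBR replicate 2 (adjusted p = 0.064).

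Of 8 tested negative acute phase genes, BBR lowered 4 (50%) in Vec livers: Serpina6 (corticosteroid-binding globulin, -0.71 ± 0.17, adjusted p = 0.00943), Ahsg (fetuin-A, -0.67 ± 0.14, adjusted p = 0.00296), Fetub (-0.59 ± 0.15, adjusted p = 0.00943) and Rbp4 (the retinol carrier, -0.52 ± 0.12, adjusted p = 0.0074), with a list median of -0.41. In shRNA livers the list median was -0.08. Without BBR the knockdown lowered 1 (12.5%), Ahsg (-0.58 ± 0.14, adjusted p = 0.00815). The call of Serpina6 with BBR in Vec mice was lost in a fit of the groups compared alone (adjusted p = 0.0525).

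Of 25 tested other complement genes, BBR raised 4 and lowered 6 in Vec livers (16% and 24%) and raised 5 and lowered 2 in shRNA livers (20% and 8%). Vtn (vitronectin, -0.63 ± 0.12, adjusted p = 0.0012) and Serping1 (the C1 inhibitor, -0.61 ± 0.12, adjusted p = 0.00166) fell in Vec mice. Cfd (factor D, made mainly by fat) rose in both from near the floor, from at most 0.785 to at most 5.6 CPM in Vec mice (3.22 ± 0.70, adjusted p = 0.00428) and from at most 0.228 to at most 4.93 CPM in shRNA mice (5.28 ± 0.87, adjusted p = 0.00226). C5ar1 (the C5a receptor of myeloid cells) rose with 0.45 to 1.12 CPM in Vec and 1.12 to 2.73 CPM in Vec+BBR livers (0.99 ± 0.32, adjusted p = 0.0406), and in shRNA mice (1.59 ± 0.35, adjusted p = 0.008). C1qa (a C1q chain made by macrophages, 0.67 ± 0.18, adjusted p = 0.0175) rose and Fcna (ficolin A, -0.59 ± 0.14, adjusted p = 0.0124) fell in shRNA mice. Without BBR the knockdown lowered 3 (12%), C4bp (the C4b-binding regulator, -0.43 ± 0.12, adjusted p = 0.0234), Serping1 (-0.35 ± 0.11, adjusted p = 0.0468) and Cd59a (which blocks C9, -0.31 ± 0.10, adjusted p = 0.0373), and it raised 1 (4%), C8g, the gamma chain of C8, under BBR (0.54 ± 0.16, adjusted p = 0.041). Some of these calls were lost without a single library or in another setting: that of C5ar1 with BBR in Vec mice without Vec replicate 1, 2, 3 or 5 or Vec+BBR replicate 2 or 3, with no filter on low counts or in a fit of the groups compared alone (adjusted p 0.0515 to 0.169), that of C1qa with BBR in shRNA mice without shRNA+BBR replicate 3 (adjusted p = 0.059), that of C4bp with the knockdown alone without Vec replicate 1 or shRNA replicate 3, 4 or 5 or in a fit of the groups compared alone (adjusted p 0.0574 to 0.0668), that of Serping1 with the knockdown alone without Vec replicate 1, 2 or 4 or shRNA replicate 1, 3, 4 or 5, with DESeq2 size factors, when scaled without the members, with no filter on low counts, with limma-voom or in a fit of the groups compared alone (adjusted p 0.0504 to 0.115), that of Cd59a with the knockdown alone without Vec replicate 1, 2 or 5 or shRNA replicate 1, 3, 4 or 5 or with no filter on low counts (adjusted p 0.0557 to 0.101), and that of C8g with the knockdown under BBR without Vec+BBR replicate 2, 3, 4 or 5 or shRNA+BBR replicate 1, 2 or 5 or in a fit of the groups compared alone (adjusted p 0.0536 to 0.127).

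Of 26 tested other coagulation and fibrinolysis genes, BBR raised 5 and lowered 8 in Vec livers (19.2% and 30.8%) and raised 2 and lowered 6 in shRNA livers (7.69% and 23.1%). Plat (tissue plasminogen activator) rose in both at levels up to 2.33 CPM (1.21 ± 0.40, adjusted p = 0.0464 and 1.81 ± 0.43, adjusted p = 0.0119). Hrg (histidine-rich glycoprotein) fell in both (-0.88 ± 0.16, adjusted p = 0.00115 and -0.54 ± 0.16, adjusted p = 0.028). F8 (factor VIII, of endothelium) rose in Vec mice (0.81 ± 0.18, adjusted p = 0.00545), and F13b (the carrier chain of factor XIII) fell in shRNA mice (-0.53 ± 0.12, adjusted p = 0.009). Without BBR the knockdown raised 3 and lowered 4 of the 26 (11.5% and 15.4%), and with BBR it raised 1 and lowered 2 (3.85% and 7.69%). It raised F3 (tissue factor, 0.64 ± 0.18, adjusted p = 0.0204) and F8 (0.60 ± 0.18, adjusted p = 0.0345), and lowered Serpinf2 (antiplasmin, -0.55 ± 0.13, adjusted p = 0.00647) and Vkorc1 (which recycles vitamin K, -0.46 ± 0.10, adjusted p = 0.00555). Under BBR it lowered Serpinf2 (-0.47 ± 0.13, adjusted p = 0.0261) and Ggcx (the vitamin K dependent carboxylase, -0.44 ± 0.09, adjusted p = 0.00659) and raised Habp2 (0.42 ± 0.11, adjusted p = 0.0242). Some of these calls were lost without a single library or in another setting: that of Plat with BBR in Vec mice without Vec replicate 1, 2 or 4 or Vec+BBR replicate 2, 3, 4 or 5, with no filter on low counts or in a fit of the groups compared alone (adjusted p 0.0546 to 0.124), that of Hrg with BBR in shRNA mice without shRNA replicate 4 or 5 or shRNA+BBR replicate 3 or 4 (adjusted p 0.0563 to 0.0886), that of F3 with the knockdown alone without Vec replicate 3 or shRNA replicate 4 (adjusted p 0.0549 to 0.0694), that of F8 with the knockdown alone without Vec replicate 2 or 5 or shRNA replicate 1, 3 or 4, with limma-voom or in a fit of the groups compared alone (adjusted p 0.0518 to 0.0872), that of Serpinf2 with the knockdown under BBR without Vec+BBR replicate 3, 4 or 5 or shRNA+BBR replicate 2 or 3 (adjusted p 0.0532 to 0.074), and that of Habp2 with the knockdown under BBR without Vec+BBR replicate 5 or shRNA+BBR replicate 1 or 5 (adjusted p 0.0568 to 0.065).

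Markers of other liver cells were counted and summed in the same livers. Of all genes, 7.58% were called higher and 7.88% lower with BBR in Vec mice. With BBR in shRNA mice the shares were 8.37% and 7.28%, and with knockdown without BBR 5.28% and 7.91%. A count near these shares is no result about a cell type. The livers carried hepatocyte markers outside the member list throughout, summed over 6 genes to 11105 to 15780 CPM in Vec, 10311 to 11673 in Vec+BBR, 12358 to 14150 in shRNA and 10554 to 13868 CPM in shRNA+BBR livers; in Vec mice 2 of the 6, Cps1 and Tat, were called lower with BBR. Stellate cell markers summed to 143 to 295 CPM in Vec and 310 to 422 CPM in Vec+BBR livers, without overlap, with 4 of 8 called higher, and to 199 to 264 and 260 to 423 CPM in shRNA and shRNA+BBR livers, with 5 of 8 called higher. Cholangiocyte markers summed to 24 to 42.6 CPM in Vec and 50.7 to 110 CPM in Vec+BBR livers, mostly Spp1. Endothelial markers summed to 74.6 to 104 CPM in Vec and 109 to 158 CPM in Vec+BBR livers, with 3 of 6 called higher, and the knockdown without BBR raised 4 of the 6. In shRNA and shRNA+BBR livers they summed to 118 to 160 and 107 to 157 CPM, with 1 of 6 called higher and 2 lower with BBR, Stab2 (-0.51 ± 0.17, adjusted p = 0.0432) and Kdr (-0.42 ± 0.12, adjusted p = 0.0297). Kupffer cell and macrophage markers overlapped, at 135 to 389 CPM in Vec and 223 to 377 CPM in Vec+BBR livers, with 1 of 9 called higher and 2 lower.

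Neutrophil markers, of interest because neutrophils also hold haptoglobin and lipocalin 2, summed to at most 9.63 CPM in any liver, and 6 of the 9 stayed under 1 CPM in all 20. S100a8 was higher with BBR in shRNA livers (2.14 ± 0.57, adjusted p = 0.0179). Lymphocyte markers summed to at most 3.88 CPM and adipocyte markers to at most 1.44 CPM. The part of a shift between cell types in the member results was not tested.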

How the data were processed

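Liver RNA of db/db mice was sequenced in 20 poly(A)-selected NEBNext Ultra libraries, whose kit does not mark strand. The deposited file of each library lists estimated read counts and FPKM for 22298 genes. The deposited estimated counts, 91.9% to 93.3% of them whole, were made by the authors with a counter not given in the sources used here, on the mouse build that the submitters' processing notes name, mm10. The FPKM values were computed by the authors per transcript length and library size and were used here for levels and ratios, not for tests.

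Counts were rounded to whole numbers. Genes passing edgeR's filterByExpr (minimum count 10, total 15) were scaled by TMM and tested with edgeR 4.0.16 quasi-likelihood fits in R 4.3.3 on 4 group means, calling genes at a Benjamini-Hochberg adjusted p under 0.05. The biological coefficient of variation was 17.7%. Library totals of 17432903 to 25024094 counts limit low genes: the floor of 3 counts lies at 0.121 to 0.193 CPM, which covers counting error only. No 2 libraries of a group differed by less than sampling noise. The comparisons were BBR against vehicle in each vector group, knockdown against Vec with and without BBR, and the difference of the BBR effects. Group and replicate numbers came from the labels. Alternatives were DESeq2 1.42.0, limma-voom (limma 3.58.1), other scalings and filters, a replicate block, a fit of the compared groups alone and leaving out each library. The labels do not say that replicate numbers pair samples. Same-numbered libraries correlated over 0.1 for 1, 3, 0 and 0 of 5 numbers in the 4 comparisons. Libraries of different numbers were not compared, so these values cannot decide whether the numbers pair samples.

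The members and lists were chosen with earlier results of these data known. Per-liver values are given for members called in a comparison or most abundant in their role, and other pathway genes are named where called, at most 4 per list and comparison by size of fold. Promoter windows come from RefSeq and gene positions from GENCODE. Stated roles of genes are background. Some pathway genes and 1 motif are not reported here.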

Additional observations from a re-analysis of the deposited data

Results flagged for a closer look

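Among 128 groups of 5 livers tested for a single liver apart from the other 4 (Dixon's criterion, which flags about 1 group in 20 by chance), 6 stood out. Orm2 measured 465 CPM in Vec+BBR replicate 1, against 255 to 301 CPM in the other Vec+BBR livers. Itih4 measured 2504 CPM in Vec replicate 4, against 1010 to 1427 CPM in the other Vec livers. Fga measured 1839 CPM in Vec replicate 3, below the 2400 to 2613 CPM of the others. Mbl1 measured 164 CPM in shRNA replicate 3, against 134 to 142 CPM. Masp2 measured 160 CPM in shRNA+BBR replicate 1, against 138 to 142 CPM. C8b measured 66.5 CPM in shRNA+BBR replicate 5, against 31.9 to 40 CPM in the others.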

How the results depend on the processing

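No called member changed direction under any alternative run. Members called numbered 14 to 25 for BBR in Vec mice (18 as reported), where leaving out single libraries gave 14 to 25. With single libraries left out 9.93% to 19.3% of all genes were called, against 15.5% with all livers. Of the 18 calls, 13 were kept under every alternative, as were 3 of 15 for BBR in shRNA mice, 5 of 6 for the knockdown without BBR and 1 of 2 with BBR. For BBR in shRNA mice (15) leaving out single libraries gave 3 to 18, when 5.31% to 20.3% of all genes were called. For the knockdown without BBR (6) DESeq2 gave 11 (15.9% of all genes called) and leaving out single libraries 5 to 11 (8.16% to 18.3%). For the knockdown with BBR (2) the count was 1 with no filter on low counts (5.04% of all genes called) and 5 with DESeq2 (11.5%). It was 4 when the groups compared were fitted alone (8.35%) and 1 to 4 without single libraries (4.32% to 9.08%). For the difference of the BBR effects (0) DESeq2 gave 2 (3.1% of all genes called) and leaving out single libraries 0 to 1 (0.0402% to 0.98%). With the replicate number as a block, a pairing that the labels do not state, the counts were 17, 11, 7, 1 and 0 in the same order. The shares of all genes called were then 14.2%, 14.7%, 12.1%, 7.62% and 0.17%. Calls lost with this block are not among the losses given above. Mitochondrial genes took a mean of 0.02% to 0.0267% of counts per group, so leaving them out could not change the members' share and is no check of it. DESeq2 called 338 of all genes for the difference of the BBR effects, where edgeR called 18. The causes of these shifts were not tested. Genes near the floor, such as Cfd, are limited by depth, and fractional counts leave Saa1 with Saa2, Orm1 with Orm2 and Kng1 with Kng2 incompletely separated and the levels of C1s1, Masp2, Plg and Klkb1 uncertain.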
